A study of Mus musculus with 2 samples.

Results

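The genes described here are 30 mouse genes of DNA damage signalling and repair, picked by name from the 54658 gene symbols of the deposited tables. All 30 are present. By role they comprise 11 genes of damage sensing and signalling (Atm, Atr, Chek1, Chek2, Rad50, Nbn, Mdc1, Trp53bp1, Rnf8, Rnf168 and Topbp1), 8 of homologous recombination (Brca1, Brca2, Palb2, Rad54l, Exo1, Blm, Rpa1 and Rpa2), 5 of end joining (Prkdc, Xrcc4, Xrcc5, Xrcc6 and Lig4) and 6 of single-strand break, crosslink and mismatch repair (Parp1, Xrcc1, Lig1, Fancd2, Fanca and Msh6).

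They were measured by spatial transcriptomics, which reads RNA from barcoded positions under a tissue slice, in frozen sections of mouse intestine 10 µm thick. The series holds 2 sections, 1 from wild-type mice and 1 from mice labelled as knockout for Dpf2, which encodes a subunit of the BAF chromatin remodelling complex. Both were irradiated with 10 Gy of X-rays, and no unirradiated section was analysed here. The question named by the series title is what Dpf2 does in radiation injury of the gut. How long after irradiation and from which stretch of gut the tissue was taken, which part of Dpf2 was deleted and in which cells, and how many animals stand behind a section were not stated in the labels. With 1 section per genotype, every difference below is between these 2 sections and cannot be assigned to the genotype. No test was made, and the 95% intervals cover counting error only.

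A double-strand break is sensed by the complex that holds RAD50 and NBN, which brings in the kinase ATM. Single-stranded DNA at stalled forks is coated by RPA and activates the kinase ATR through TOPBP1. Cells that have copied their DNA can repair a break accurately from the sister copy by homologous recombination, while end joining ligates broken ends directly and works at any stage of the cycle. In the irradiated gut, dividing crypt cells are known for their sensitivity, and many repair genes are transcribed with DNA replication, partly through E2F factors at their promoters.

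The wild-type section holds 50970 barcodes and 39824941 counts, with a median of 721 counts per barcode. The knockout section holds 88056 barcodes and 89754886 counts, with a median of 932. Of the barcode names, which mark array positions, 45557 occur in both. Dpf2, the targeted gene, had 940 counts under the wild-type label and 2333 under the knockout label, 23.6 and 26.0 counts per 1000000 (CPM), so it was not lower under the latter. The log2 ratio was 0.14 (0.03 to 0.25), and the labels below are used as names only. The tissue also differed between the sections. Markers of crypt-base cells (Paneth and stem cell genes, 12 listed) made up 9.05% of counts in the squares of the wild-type section and 0.621% in those of the knockout section. The 14 markers of villus enterocytes made up 0.0495% and 3.46%. Markers of mitotic cells, a list of 14 genes that holds none of the 30, summed to 816 and 513 CPM, a log2 ratio of -0.67. Neutrophil markers (8 listed) summed to 519 and 4.20 CPM. The part of these differences in the results below was not tested. A barcode can cover several cells, so fewer cells of a type and less RNA per cell cannot be told apart.

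Promoter sequences are shown for genes of the set that hold a motif of replication-linked transcription. The promoter table, from RefSeq on GRCm38.p6, matched 25 of the 30 genes and left out Nbn, Prkdc, Rad50, Exo1 and Fancd2. It was searched for an E2F-type motif, spelled TTTCCCGC, TTTGGCGC or TTTGCGC, on both strands. Of the 25 genes, 5 held it (Brca2, Chek2, Mdc1, Msh6 and Xrcc6), each in 1 of the 29 promoters of these genes, which is 17.2% of the 29 against 3.16% of all 32851 promoters of the same 300 bases. A motif bound in late-cycle genes, the CHR element (TTTGAA or TTCGAA), was present in 2 of the 25, Atr and Rnf8, or 6.90% of the 29 promoters, against 19.2% of all promoters. A match describes the letters and is no evidence of binding. Of the 5 with the E2F-type motif, 4 are printed because their motif lies before the start, with the motif in capitals, and the promoter of Lig4 is added because it had neither motif and was the 1 gene of the set at least 2-fold higher in the knockout section. Each sequence gives the 250 bases before an annotated start on GRCm38.p6, 5′ to 3′ on the strand of the gene.
Brca2, chr5:150522371-150522620, plus strand: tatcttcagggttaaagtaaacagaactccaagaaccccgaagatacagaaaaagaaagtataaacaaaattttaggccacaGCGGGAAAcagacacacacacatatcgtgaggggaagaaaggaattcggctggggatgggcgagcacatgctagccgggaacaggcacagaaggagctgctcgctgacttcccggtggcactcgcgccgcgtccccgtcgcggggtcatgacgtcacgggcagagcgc
Chek2, chr5:110839733-110839982, plus strand: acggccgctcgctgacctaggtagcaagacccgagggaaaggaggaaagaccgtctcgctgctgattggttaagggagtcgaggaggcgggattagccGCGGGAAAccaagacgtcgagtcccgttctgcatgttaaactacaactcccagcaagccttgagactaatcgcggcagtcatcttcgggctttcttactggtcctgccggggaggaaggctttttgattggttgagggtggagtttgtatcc
Mdc1, chr17:35841248-35841497, plus strand: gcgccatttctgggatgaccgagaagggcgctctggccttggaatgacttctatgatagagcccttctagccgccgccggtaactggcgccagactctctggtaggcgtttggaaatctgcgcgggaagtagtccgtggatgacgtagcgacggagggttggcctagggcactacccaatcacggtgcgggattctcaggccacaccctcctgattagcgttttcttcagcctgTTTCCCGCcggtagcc
Xrcc6, chr15:82016119-82016368, plus strand: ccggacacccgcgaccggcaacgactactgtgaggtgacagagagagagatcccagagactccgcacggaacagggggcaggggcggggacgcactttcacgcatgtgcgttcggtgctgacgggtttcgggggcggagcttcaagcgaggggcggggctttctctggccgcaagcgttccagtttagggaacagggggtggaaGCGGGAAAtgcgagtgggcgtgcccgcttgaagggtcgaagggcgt
Lig4, chr8:9977681-9977930, minus strand: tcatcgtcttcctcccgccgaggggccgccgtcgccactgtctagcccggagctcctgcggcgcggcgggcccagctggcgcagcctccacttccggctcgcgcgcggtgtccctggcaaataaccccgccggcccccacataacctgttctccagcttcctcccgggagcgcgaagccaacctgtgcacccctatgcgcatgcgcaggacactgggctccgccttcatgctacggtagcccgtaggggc
The motif begins 168 bases before the start in Brca2, 152 in Chek2, 16 in Mdc1 and 46 in Xrcc6. In Brca2, Chek2 and Xrcc6 it is read on the opposite strand. Msh6 holds it 15 bases after its start.

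Across whole sections, the repair genes as a set made up less of the RNA in the section labelled knockout. Their counts summed to 24188 in the wild-type section and 34638 in the knockout section, which is 607 and 386 CPM, a log2 ratio of -0.65 (-0.68 to -0.63). Ratios are given throughout as the log2 of CPM in the knockout section over CPM in the wild-type section unless squares are compared, followed by the 95% interval, so that -1 means 2-fold lower in the knockout section. Of the 30, 27 were lower in the knockout section and 3 were higher. The median log2 ratio over the 30 was -0.67, beside -0.18 over all 14516 genes with 200 or more counts in both sections together, a minimum that all 30 passed. At least 2-fold lower were 8 of the 30, beside 19.7% of all genes tested, and 1 was at least 2-fold higher, beside 15.7%. The share lower by 2-fold was thus not far from the background, and fewer were higher by 2-fold than among all genes. Scaling to the median of all genes, which was -0.18, raises every ratio by the size of that median, so that the median over the 30 becomes -0.49, and turns the direction of Trp53bp1 alone. In squares at or above the median share of pan-epithelial markers, the median over the 30 was -1.06 and 19 were at least 2-fold lower. No median or share over all genes is given for those squares, so these 2 values cannot be set against the background. The epithelium in them need not be alike, as crypt-base and enterocyte markers differed between the sections.

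Each section was also divided by position into 4 parts with like numbers of barcodes. The summed level of the 30 genes lay between 583 and 647 CPM in the parts of the wild-type section and between 363 and 397 CPM in the parts of the knockout section, so the ranges did not overlap. In 25 of the 30 genes all 4 wild-type parts lay above all 4 knockout parts, which 42.8% of all genes did. In 1 gene, Lig4, the order was the opposite, as in 31.6% of all genes. The parts overlapped in Trp53bp1, Brca2, Xrcc4 and Fanca. Parts of 1 section are not replicates, and the high background shows how often this separation occurs between these 2 sections.

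**Figure D1:**
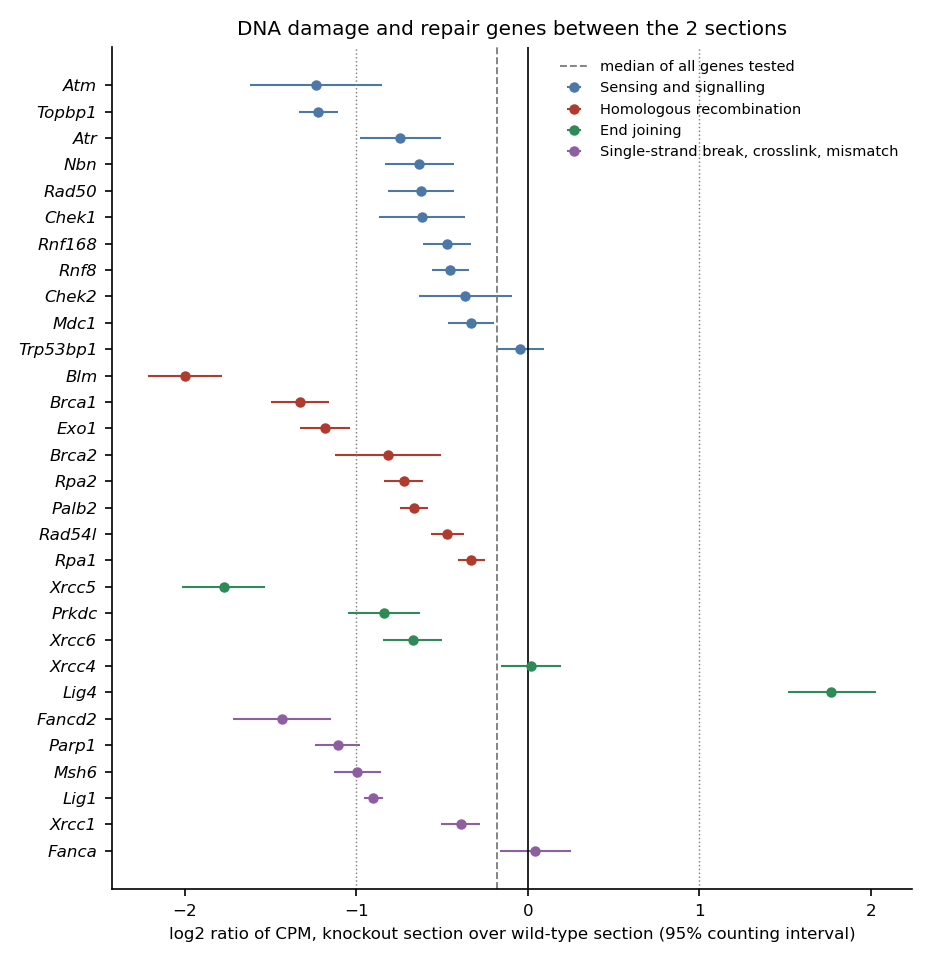
Log2 ratio of CPM, knockout over wild-type section as labelled, for each of the 30 genes, coloured by role, with 95% counting intervals, the median of all genes tested (dashed, -0.18) and the 2-fold lines (dotted). Of the 30 points, 27 lie below 0 and Lig4, at 1.77, stands alone above the upper 2-fold line.

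Among the sensing and signalling genes, all 11 were lower in the knockout section, 2 of them at least 2-fold, with a median of -0.62. Trp53bp1, the 1 whose interval included 0, is the exception to any firm direction, and its sign turns with the scaling as said. Summed, the group held 149 CPM in the wild-type section and 99.9 CPM in the knockout section (-0.57, -0.62 to -0.53). Atm (chromosome 9, 53437122 to 53536828 on GRCm38), the kinase that responds to double-strand breaks, had 117 and 112 counts, or 2.94 (2.43 to 3.52) and 1.25 (1.03 to 1.501) CPM, a log2 ratio of -1.24 (-1.62 to -0.85). Atr, the kinase of replication stress, was less far apart, at 263 and 354 counts, 6.60 and 3.94 CPM (-0.74, -0.98 to -0.51). Topbp1, which activates ATR, had 1289 and 1245 counts, fewer in the larger library, or 32.4 and 13.9 CPM (-1.22, -1.34 to -1.11). Atm and Topbp1 are the 2 genes of this group past 2-fold, and in both the 4 parts of the sections were apart, for Topbp1 at 28.3 to 36.4 CPM against 12.4 to 15.8 CPM.

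The checkpoint kinases were lower by smaller amounts. Chek1, the effector kinase of ATR, had 225 and 330 counts, 5.65 and 3.68 CPM (-0.62, -0.87 to -0.37). Chek2, the effector kinase of ATM, had 179 and 313 counts, 4.49 and 3.49 CPM (-0.37, -0.64 to -0.09). The interval of Atm lies below that of Chek2, while those of Atr and Chek1 overlap. The break-binding partners Rad50 and Nbn had almost the same ratio. Rad50 had 378 and 552 counts (-0.63, -0.82 to -0.43), and Nbn had 346 and 502 (-0.64, -0.84 to -0.43).

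A further set of signalling genes acts as adaptors that mark chromatin around a break. Mdc1, a scaffold that binds phosphorylated histone H2AX, had 698 and 1251 counts, 17.5 and 13.9 CPM (-0.33, -0.47 to -0.19). The ubiquitin ligases that follow it were similar to each other, with Rnf8 at 1170 and 1928 counts (-0.45, -0.56 to -0.35) and Rnf168 at 660 and 1072 (-0.47, -0.61 to -0.33). Trp53bp1, which encodes 53BP1, the protein that protects ends from resection, had 599 and 1306 counts, 15.0 and 14.6 CPM (-0.05, -0.19 to 0.09), and its parts overlapped at 13.3 to 17.8 and 13.1 to 16.0 CPM. Trp53bp1 overlaps Map1a and Tubgcp4 in the annotation, and Rnf8 overlaps Gm28043. The labels do not state whether counting used the strand, so reads of overlapping genes cannot be told apart.

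All 8 homologous recombination genes were lower in the knockout section, 3 of them at least 2-fold, with a median of -0.77. Summed, they held 222 and 139 CPM (-0.68, -0.71 to -0.64). Without Rpa1 and Rpa2, which also serve replication, the sums were 142 and 80.7 CPM (-0.81). Blm (chromosome 7, 80454993 to 80535148), the helicase that dissolves crossed-over intermediates, had the lowest ratio of all 30, with 494 counts in the wild-type section and 279 in the knockout section, 12.4 and 3.11 CPM (-1.997, -2.214 to -1.782). Its parts ran from 11.5 to 13.0 CPM in the first and from 2.57 to 4.08 CPM in the second. Brca1 (chromosome 11, 101488761 to 101551955), which promotes end resection and loads the machinery, had 606 and 543 counts, 15.2 and 6.05 CPM (-1.33, -1.50 to -1.16). Exo1, the nuclease that extends resection, had 776 and 771 counts, 19.5 and 8.59 CPM (-1.18, -1.33 to -1.04). In these 3 genes the library with 2.25 times as many counts in all held no more counts of the gene.

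The partners of BRCA1 were closer together. Brca2, a mediator of strand exchange, had only 157 and 201 counts, 3.94 and 2.24 CPM (-0.82, -1.12 to -0.51), and its parts overlapped. Palb2, which joins BRCA1 and BRCA2, had 2163 and 3078 counts, 54.3 and 34.3 CPM (-0.66, -0.74 to -0.58). Rad54l, a motor protein of strand exchange, had 1457 and 2372 counts (-0.47, -0.56 to -0.37), with part of its reads possibly from the overlapping Lrrc41. The RPA subunits, which coat single-stranded DNA in replication and repair alike, differed from each other. Rpa1 had 2062 and 3700 counts (-0.33, -0.41 to -0.25), and Rpa2 had 1131 and 1542 (-0.73, -0.84 to -0.61), so their intervals do not overlap.

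End joining was the group whose members went in different directions, with 3 of 5 lower and 2 higher. The summed level was 42.8 CPM in the wild-type section and 37.3 CPM in the knockout section (-0.20, -0.29 to -0.12), against a median of -0.67, since 1 gene offset the others. Lig4 (chromosome 8, 9970020 to 9977680), the ligase that seals the ends, had 145 counts in the wild-type section and 1113 in the knockout section, 3.64 (3.07 to 4.28) and 12.4 (11.7 to 13.2) CPM, a log2 ratio of 1.77 (1.52 to 2.03). Its parts ran from 3.002 to 4.619 CPM and from 11.41 to 14.55 CPM. Without Lig4 the group held 39.2 and 24.9 CPM (-0.66, -0.75 to -0.56), close to the other role groups. Lig4 overlaps no other gene in the annotation used.

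The DNA-end binding proteins were lower. Xrcc5 (chromosome 1, 72307417 to 72394953), which encodes Ku80, had 358 and 236 counts, 8.99 and 2.63 CPM (-1.77, -2.02 to -1.53), with parts at 8.28 to 9.62 and 2.06 to 2.90 CPM. Xrcc6, which encodes its partner Ku70, had 466 and 659 counts, 11.7 and 7.34 CPM (-0.67, -0.85 to -0.50). The products of both genes form 1 heterodimer, and their ratios did not overlap. Prkdc, the kinase that Ku recruits, had 338 and 426 counts, 8.49 and 4.75 CPM (-0.84, -1.05 to -0.63). Xrcc4, the scaffold that binds LIG4, had 399 and 910 counts, 10.0 and 10.1 CPM (0.02, -0.15 to 0.19), so it did not share the ratio of its ligase.

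In the last group 5 of 6 genes were lower, with a median of -0.95 and sums of 194 and 110 CPM (-0.82, -0.86 to -0.78). Parp1, the sensor of single-strand breaks, had 946 and 988 counts, 23.8 and 11.0 CPM (-1.11, -1.24 to -0.98). Lig1, the ligase of replicating strands, had 4407 and 5321 counts, 111 and 59.3 CPM (-0.90, -0.96 to -0.84). Xrcc1, the scaffold of single-strand break repair, had 1034 and 1775 counts (-0.39, -0.50 to -0.28). Msh6, a mismatch recognition subunit, had 825 and 933 counts (-0.99, -1.13 to -0.86). The crosslink repair genes went apart from each other. Fancd2, whose ubiquitylation is the central step of the Fanconi pathway, had 225 and 188 counts, 5.65 and 2.09 CPM (-1.43, -1.72 to -1.15), whereas Fanca, a subunit of the ligase complex upstream of it, had 275 and 638, 6.91 and 7.11 CPM (0.04, -0.16 to 0.25). Fancd2 overlaps Fancd2os and Gm46971, Fanca overlaps Zfp276, Msh6 overlaps Fbxo11, Lig1 overlaps Zswim9, and Xrcc6 above overlaps Desi1.

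In both sections repair genes were higher where mitotic markers were rich. Barcodes were pooled into squares with a side of 20 position units, whose physical size is not stated, and squares with 2000 or more counts were kept, 1371 in the wild-type section and 2180 in the knockout section. In the 10% of squares richest in mitotic markers, the 30 genes summed to 807 CPM against 585 CPM in all other squares of the wild-type section, and to 622 against 361 CPM in the knockout section. In the wild-type section 28 of 30 were higher there, with a median of 0.45 beside 0.18 over all genes, and 0 were at least 2-fold higher, beside 1.19% of all genes. In the knockout section 28 of 30 were higher too, with a median of 0.78 beside 0.21, and 8 were at least 2-fold higher, beside 4.62%. The number higher in both was 26.

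In the wild-type section, Prkdc went from 7.79 to 14.4 CPM in mitotic squares (0.88, 0.45 to 1.29), Rpa2 from 26.5 to 45.2 CPM (0.77) and Xrcc6 from 10.9 to 18.2 CPM (0.74). In the knockout section, Fancd2 went from 1.79 to 5.01 CPM (1.49, 0.96 to 1.99), Lig1 from 52.9 to 120 CPM (1.18, 1.08 to 1.28) and Topbp1 from 12.6 to 26.0 CPM (1.05, 0.83 to 1.26). Genes that stood apart from this pattern were Lig4 and Brca2 in the wild-type section, at -0.23 and -0.24, and Chek2 and Xrcc4 in the knockout section, at -0.11 each, all with intervals that include 0. Over the 30 genes, the log2 ratios of mitotic over other squares in the 2 sections had a Pearson correlation of 0.28 and a Spearman correlation of 0.28. The relation is weak, and the values of each section rest on its own library alone.

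**Figure D2:**
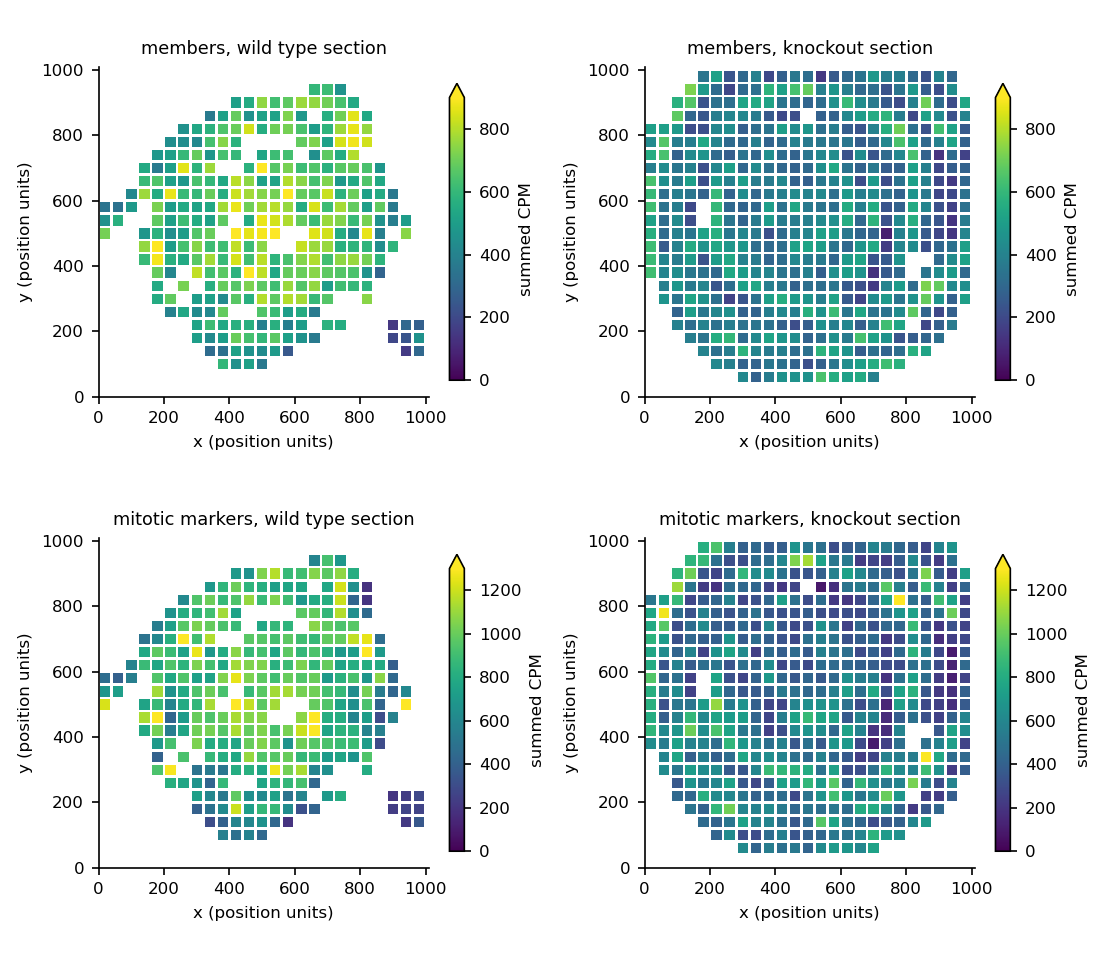
Summed CPM of the 30 genes (top) and of the 14 mitotic markers (bottom) in squares of 40 position units with 50000 or more counts, 317 in the section labelled wild type (left) and 536 in the section labelled knockout (right); axes are positions in the units of the files. The median square held 614 CPM of the repair genes in the first and 379 CPM in the second, and 850 and 477 CPM of the mitotic markers.

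Set against the mitotic markers, the difference between the sections was small. There were 0.744 counts of the 30 genes per count of a mitotic marker in the wild-type section and 0.753 in the knockout section, a log2 ratio of 0.02 (-0.01 to 0.04). Intervals of ratios per mitotic count, here and below, take the mitotic counts as fixed and are therefore too narrow. For homologous recombination the values were 0.272 and 0.271, and for sensing and signalling 0.182 and 0.195 (0.10, 0.05 to 0.14). For single-strand break, crosslink and mismatch repair they were 0.237 and 0.214 (-0.15, -0.19 to -0.11). End joining was higher per mitotic count in the knockout section, at 0.0525 and 0.0727 (0.47, 0.38 to 0.55), and without Lig4 it was level, at 0.0480 and 0.0485 (0.01, -0.08 to 0.11). Both lists are thus lower in the knockout section by like amounts, -0.65 and -0.67 in their sums.

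In bins of like measured mitotic share, the sum of the 30 genes was lower in the knockout section. All squares of both sections were placed in 5 bins of mitotic marker share with the same limits in both. The share of a single square carries counting error, so the bins match the measured share and not the level beneath it. Mitotic markers summed to 816 CPM over the wild-type section and 513 CPM over the knockout section. How far this error and these unlike section levels enter the ratios by bin was not tested. From the lowest to the highest bin the 30 genes ran from 411 to 726 CPM in the wild-type section and from 267 to 629 CPM in the knockout section. The log2 ratio of the sums was -0.62 (-0.71 to -0.53) in the lowest bin, -0.35, -0.34 and -0.24 in the next ones and -0.21 (-0.26 to -0.16) in the highest, so the sections lay closest where mitotic markers were richest. The sum for end joining, which includes Lig4, was level in the top bin (0.00, -0.18 to 0.17) and higher in the bin below it (0.18, 0.01 to 0.36). The median over the end joining genes was -0.20 in the top bin, beside -0.23 over the 30. With wild-type squares weighted to the mitotic bins of the knockout section, the median over the 30 genes was -0.42 rather than -0.67, and 4 rather than 8 were at least 2-fold lower (Blm -1.72, Xrcc5 -1.59, Fancd2 -1.14 and Parp1 -1.04). Lig4 was then at 2.11. No median or share over all genes is given for the bins or for the weighting, so these values have no background beside them. Over whole sections the median of all genes was -0.18. Between the mitotic marker-rich squares of the sections it was -0.05, beside -0.44 over the 28 genes of the set measured there. Neither was taken over the bins.

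**Figure D3:**
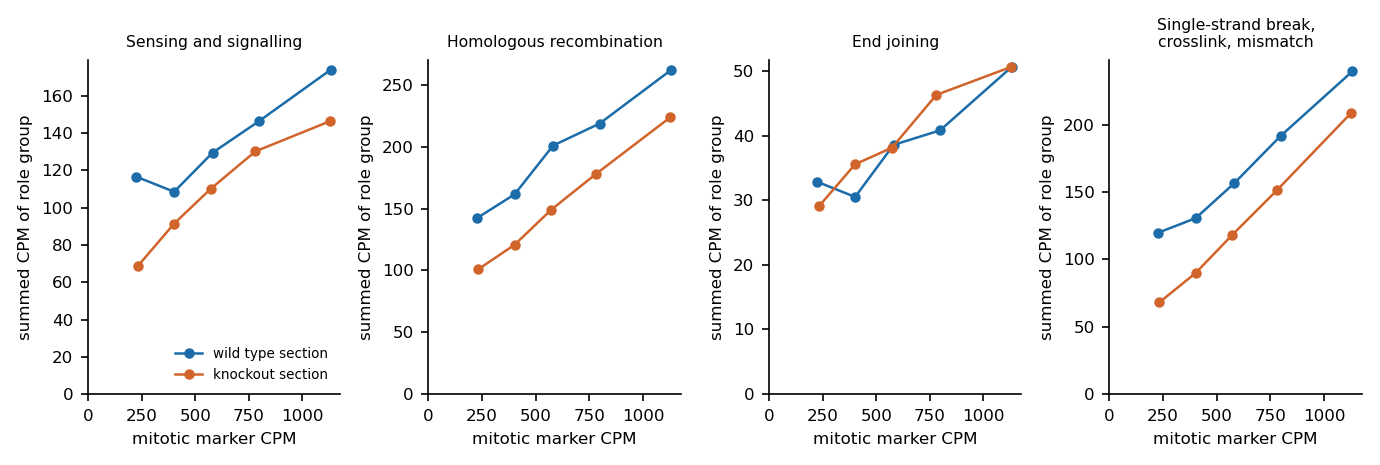
Summed CPM of each role group (vertical) against summed CPM of mitotic markers (horizontal) in 5 bins of squares, for the sections as labelled. The lines climb in both sections from the second bin on. Sensing, recombination and single-strand repair lie lower in the knockout section in every bin. For end joining, whose sums include Lig4, the lines cross and meet at 50.6 CPM in the top bin.

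Within the mitotic squares themselves, mitotic markers summed to 1388 CPM in the wild-type section and 1108 CPM in the knockout section, so the squares were not equal in these markers. Of 28 genes with 50 or more counts over the compared pair, 26 were lower in the knockout section and 2 higher, with a median of -0.44 beside -0.05 over all genes. At least 2-fold lower were 3, Xrcc5 (-1.69), Blm (-1.56) and Brca1 (-1.05), beside 13% of all genes, and 1 was at least 2-fold higher, beside 13.7%. That gene was Lig4, with 13 and 139 counts, 3.16 and 16.2 CPM (2.36, 1.53 to 3.30). Rpa1 and Trp53bp1 were nearest to equal there, at -0.03 and -0.01.

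Squares were then compared by anatomical markers, taking in each section the 10% of squares with the largest share of crypt-base, villus enterocyte or smooth muscle markers and leaving out squares in more than 1 of these sets. The crypt-base squares (112 and 139) held 18.6% and 2.10% of their counts in crypt-base markers. The villus squares (135 and 218) held 0.300% and 6.21% in enterocyte markers, all 14 of which were above 0 in both sections, so the wild-type squares of that name carried only a residual enterocyte signal. They also held 5.70% of crypt-base markers and 978 CPM of mitotic markers, against 235 CPM in the villus squares of the knockout section. The muscle squares (111 and 139) held 0.397% and 0.964% in muscle markers and are mixtures, with 8.96% of crypt-base markers in the wild-type section and 1.77% of enterocyte markers in the knockout section. The names below mean these squares and not pure tissue.

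In crypt-base squares the direction between sections was the opposite of that over whole sections, with a median close to that of all genes. The 30 genes summed to 419 CPM in the wild-type section and 515 CPM in the knockout section, and mitotic markers to 548 and 679 CPM. Of 27 genes measured, 20 were higher in the knockout section and 7 lower, with a median of 0.52 beside 0.48 over all genes. Scaled to the median of all genes, the split was 14 higher against 13 lower, with Exo1, Lig1, Msh6, Nbn, Rnf168 and Rnf8 turned. At least 2-fold higher were 4, beside 27.6% of all genes, and at least 2-fold lower 2, beside 7%. The 4 were Lig4 (8 and 61 counts, 2.96, 1.89 to 4.23), Chek2 (15 and 37 counts, 1.33), Fanca (15 and 35, 1.25) and Atr (20 and 41, 1.06). The 2 were Blm (51 and 19 counts, -1.40, -2.24 to -0.61) and Xrcc5 (37 and 16, -1.18, -2.13 to -0.30). The sensing genes had a median of 0.61, the recombination genes -0.10 and the end joining genes 0.69. Per mitotic count, the 30 genes stood at 0.764 and 0.759 in these squares (-0.01, -0.09 to 0.07).

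In villus squares the repair genes were much lower in the knockout section. They summed to 652 CPM in the wild-type section and 216 CPM in the knockout section, and mitotic markers to 978 and 235 CPM. Of 23 measured, 22 were lower and 1 higher, with a median of -1.46 beside -0.49 over all genes. At least 2-fold lower were 18, beside 36.2% of all genes, and at least 2-fold higher 0, beside 15.5%. Blm went from 11.2 to 1.25 CPM (-3.16, -4.18 to -2.24), Exo1 from 18.8 to 2.79 CPM (-2.75), Parp1 from 29.8 to 4.62 CPM (-2.69), Brca1 from 14.3 to 2.70 CPM (-2.40) and Lig1 from 127 to 24.7 CPM (-2.35, -2.58 to -2.13). The smallest differences were in Fanca (-0.43) and Xrcc4 (-0.49), whose signs turn with scaling to all genes, and Lig4 was higher at 24 and 96 counts (0.60, -0.06 to 1.31), with an interval that includes 0. Per mitotic count, the 30 genes were higher in the knockout section here, at 0.667 and 0.921 (0.47, 0.38 to 0.55). The villus squares of the 2 sections hold different tissue by their markers, so these values do not compare like with like.

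In muscle squares the summed level of the 30 genes was slightly higher in the knockout section, and lower there per mitotic count. The sums were 422 CPM and 489 CPM, with mitotic markers at 396 and 609 CPM. Of 21 measured, 15 were higher in the knockout section and 6 lower, with a median of 0.14 beside 0.23 over all genes, and scaled to all genes the split was 10 higher and 11 lower, with a median of -0.09. At least 2-fold higher were 3, beside 19.8% of all genes, and at least 2-fold lower 0, beside 8.94%. The 3 were Lig4 (6 and 72 counts, 2.29, 1.10 to 3.78), Chek2 (8 and 50 counts, 1.35) and Fanca (9 and 46, 1.06, 0.01 to 2.27). These genes had fewer than 10 counts each in the muscle squares of the wild-type section, so their intervals are wide. Per mitotic count, the 30 genes stood at 1.07 and 0.802 in muscle squares (-0.41, -0.52 to -0.30). Lig4 was the 1 gene past 2-fold upward in crypt, muscle and mitotic squares alike.

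**Figure D4:**
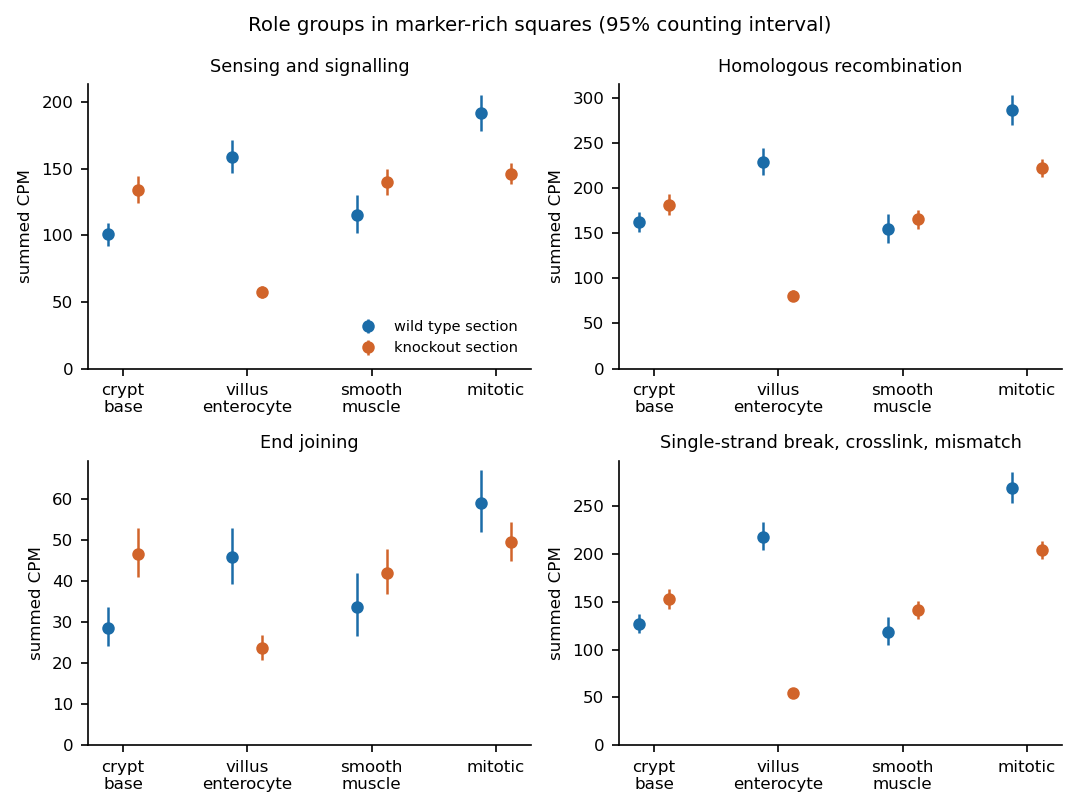
Summed CPM of the role groups in crypt-base, villus enterocyte, smooth muscle and mitotic marker-rich squares of the sections as labelled, with 95% Poisson intervals. In villus squares every role group is lower in the knockout section, down to 57.2 CPM for sensing and 54.2 CPM for single-strand repair, and in crypt squares every group is higher before scaling to all genes.

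Within the knockout section, the repair genes were higher in crypt than in villus squares. All 24 genes measured were higher in crypt squares, with a median of 1.34 beside 0.47 over all genes. At least 2-fold higher were 17, beside 28.8% of all genes, and 0 were at least 2-fold lower, beside 5.2%. Scaled to all genes, 21 stayed higher, and Fanca, Lig4 and Rad54l turned. Atr went from 1.64 CPM in villus to 7.94 CPM in crypt squares (2.28, 1.43 to 3.19), Exo1 from 2.79 to 12.4 CPM (2.15), Chek2 from 1.64 to 7.16 CPM (2.13), Prkdc from 2.21 to 7.94 CPM (1.84) and Lig1 from 24.7 to 87.7 CPM (1.83, 1.60 to 2.05). Lig4, at 9.24 and 11.8 CPM (0.35, -0.13 to 0.83), and Rad54l, at 19.5 and 26.7 CPM (0.46), were among the flattest. Mitotic markers differed by 1.53 in their sum between the same squares.

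Within the wild-type section the order was the opposite before scaling. All 23 genes measured were lower in crypt-base than in villus squares, with a median of -0.66 beside -0.53 over all genes. At least 2-fold lower was 1, Chek1 (32 counts in villus and 20 in crypt squares, -1.10), beside 9.06% of all genes, and 0 were at least 2-fold higher, beside 0.917%. Crypt-base markers hold 18.6% of the counts of these crypt squares, which lowers the CPM of all other genes. With totals that leave out genes above 0.5% of counts the median was -0.33, with 19 lower and 4 higher (Blm, Palb2, Xrcc4 and Xrcc5), and scaled to all genes it was -0.13, with 16 lower and 7 higher. Trp53bp1 (-0.99, -1.59 to -0.40), Prkdc (-0.97), Rad50 (-0.94) and Parp1 (-0.88, -1.31 to -0.47) were lowest after Chek1, and stayed below 0 under each scaling. Mitotic markers were lower in crypt squares too, by -0.83 in their sum.

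**Figure D5:**
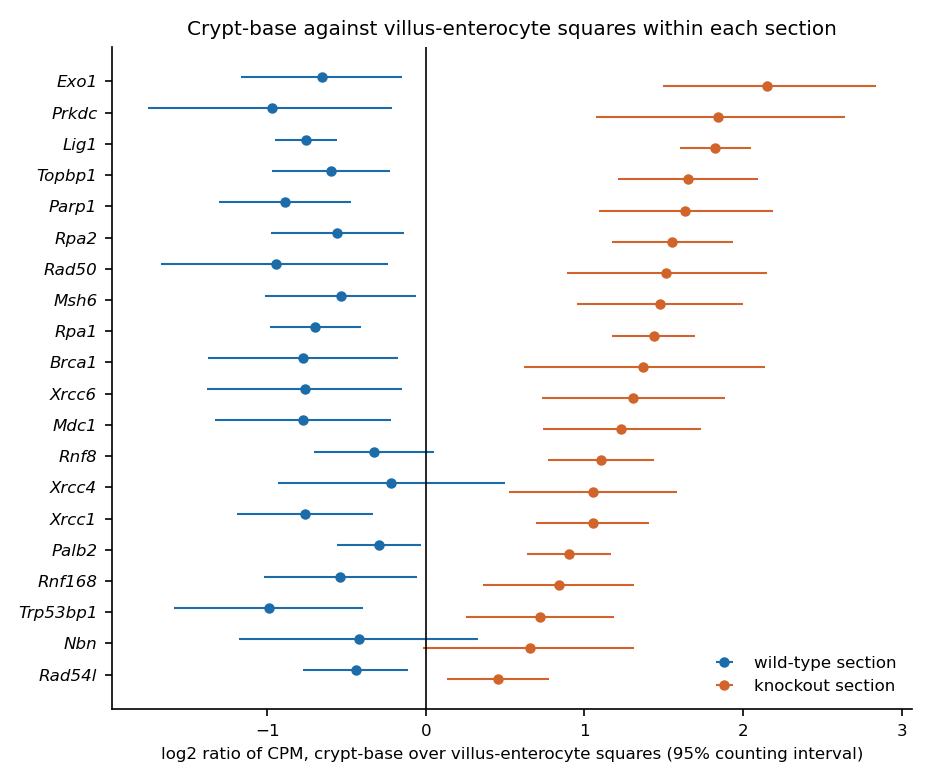
Log2 ratio of CPM, crypt-base over villus enterocyte squares, within the sections as labelled, for the 20 genes measured in both, with 95% counting intervals. All 20 lie below 0 in the wild-type section and above 0 in the knockout section, but scaled to the median of all genes Nbn, Palb2, Rad54l, Rnf8 and Xrcc4 turn in the first, and Rad54l in the second.

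Between crypt and muscle squares the set differed little in either section. In the wild-type section, 9 of 19 genes were higher in crypt squares and 10 lower, with a median of -0.08 beside -0.28 over all genes, and scaled to all genes the split was 14 higher against 5 lower around a median of 0.19. In the knockout section, 16 of 25 lay higher and 9 lower, at a median of 0.13 beside -0.02. At least 2-fold higher were 0 in the wild-type section, beside 0.92% of all genes, and 0 in the knockout section, beside 0.43%. At least 2-fold lower were 0 in both, beside 11.4% and 3.56%. Lig1 was higher in crypt squares of both sections, at 0.39 (0.11 to 0.69) and 0.22 (0.03 to 0.42), and Mdc1 lower in both, at -0.80 (-1.43 to -0.16) and -0.46 (-0.90 to -0.03).

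Other genes of the same pathways, listed by function, were more often lower than higher in the knockout section. Of 129 listed, 125 were in the tables and 119 had 200 or more counts. Of these, 86 were lower in the knockout section and 33 higher, with a median of -0.42 beside -0.18 over all genes tested. The share of all genes that was lower is not given, so the split has no background beside it. At least 2-fold lower were 15, beside 19.7% of all genes tested, and at least 2-fold higher 2, beside 15.7%, so both counts lie below the shares of all genes. Base excision repair had the lowest median of the lists, at -0.79 over 17 genes, followed by mismatch repair at -0.61 over 8 and damage signalling at -0.58 over 26. Nucleotide excision repair, which acts on bulky lesions, was at -0.20 over 16, near all genes. The Fanconi list stood at -0.32 over 14, end joining at -0.42 over 15 and homologous recombination at -0.29 over 25. In both of the last lists the median and the sum differ in sign. The summed CPM was higher in the knockout section for end joining, by 0.59 (0.55 to 0.63), with 6 genes higher and 9 lower. For homologous recombination it was higher by 0.06 (0.04 to 0.08), with 11 genes higher and 14 lower. Such sums are weighted to abundant genes. In the end joining list Tdp2 alone held 1159 of 6688 counts in the wild-type section and 11244 of 22679 in the knockout section. No sum without Tdp2 is given. The sums of the other lists were lower, from -0.77 for mismatch repair to -0.21 for nucleotide excision repair, and the sum over all of these genes was -0.27.

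Tdp2, which frees ends blocked by topoisomerase 2, was at least 2-fold higher in the knockout section, with 1159 and 11244 counts, 29.1 and 125 CPM (2.11, 2.02 to 2.19). Its parts ran from 25.9 to 32.2 CPM in the wild-type section and from 119 to 130 CPM in the knockout section, and its ratio lay between 2.05 and 2.27 in crypt, villus and muscle squares.

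Paxx, an accessory factor of Ku, was higher as well, at 591 and 2212 counts (0.73, 0.60 to 0.87), and so was Slx4, a scaffold of nucleases, at 258 and 1031 (0.83, 0.63 to 1.03). Reads of Paxx cannot be told apart from those of the overlapping Clic3. At the lower end of the end joining list were Rif1, a partner of 53BP1, at -0.75, and the polymerase Polm at -0.65. Among recombination genes Top3a, which works with BLM in dissolving intermediates, was lowest, with 275 and 204 counts (-1.60, -1.87 to -1.34), so that both partners were lower.

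In damage signalling, Clspn, the adaptor through which ATR reaches CHK1, had 466 and 247 counts, 11.7 and 2.75 CPM (-2.09, -2.32 to -1.86), and Timeless, a fork protection factor, was at -1.26. Babam1, a subunit of a BRCA1 complex, was at 0.32, and Wee1, a kinase that restrains entry into mitosis, at 0.16 (-0.03 to 0.35). In the Fanconi list Fancc (-1.33) and Fanci, the partner of FANCD2 (-1.27), were lowest, and Fancg (0.60) and Slx4 highest. Pcna, the replication clamp counted in the mismatch list, had 5462 and 6649 counts (-0.89), close to Lig1, while Msh3 (0.19) and Mlh3 (0.22) had intervals that include 0.

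Apex1, the main nuclease for abasic sites, had the lowest ratio of these pathway genes, with 588 and 296 counts, 14.8 and 3.30 CPM (-2.16, -2.37 to -1.96). It was lower in crypt, villus and muscle squares alike, by -1.47, -3.15 and -1.35. The glycosylase Mbd4 was at -1.05, and Neil1 (0.11) and Neil2 (0.24) had intervals that include 0. In nucleotide excision repair, Ercc1, the partner of the XPF nuclease, was lowest (-1.38, -1.58 to -1.18), then Ercc8 (-0.75). Uvssa (0.27) and Ercc6 (0.54, 0.31 to 0.77) were highest.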

How the data were processed

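The deposited tables hold whole-number counts per gene and barcode, which the authors made from an array of barcoded spots. Per the labels' protocols, spot and tissue images were aligned with BSTMatrix and BSTViewer and barcodes under tissue were kept. The build is GRCm38, per the submitters' processing notes. The labels name no aligner or counting tool and do not say whether counting used strand or collapsed molecular identifiers, and reads copied by PCR are not independent molecules. Intervals and floors therefore cover counting error only. Array positions have no stated unit.

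Rows that repeat a symbol were added. Counts were then added up per section or per set of squares and expressed as CPM. Intervals are at 95%, exact Poisson for CPM and, for log2 ratios, exact binomial (Clopper-Pearson) conditional on the sum of both counts. No differential expression test was run, as each group has 1 section. A call of at least 2-fold needed 200 counts in both sections together, or 50 over a pair of classes of squares. The 30 genes, the marker and pathway lists and the rules were chosen with earlier results of these data known. Every one of the 30 is named. Of the other pathway genes, up to 2 of the highest and 2 of the lowest ratios per list among genes with 50 or more counts are named, with Dpf2 as the check of the labels. Some genes that this rule names are not reported here individually. The marker lists also include immune, stromal, muscle, fat and nerve cells. Neutrophil markers are given in the text. The other lists had these log2 ratios of summed CPM between the sections: pan-epithelial 0.33, smooth muscle 1.26, B cell -2.66, plasma cell -1.03, T and NK cell 1.95, macrophage -1.86, fibroblast -0.74, endothelium -0.57, adipocyte 3.31 and enteric neuron and glia -0.68. The calculation of ratios and intervals was checked on simulated independent Poisson counts. The intervals assume the same model, so this says nothing about PCR copies or differences between sections. Promoters and gene positions are from RefSeq tables of GRCm38.p6. Python 3.11.15, numpy 2.4.6, scipy 1.17.1 and pandas 2.3.3 were used.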

Additional observations from a re-analysis of the deposited data

Results flagged for a closer look

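In 17 of the 20 genes of the set measured in both sections, the log2 ratio of crypt-base over villus enterocyte squares went in opposite directions. It lay below 0 in the section labelled wild type and above 0 in the section labelled knockout, with 95% counting intervals that exclude 0 in both. The difference was not tested. The same ratio had a median over all genes of -0.53 in the wild-type section and 0.47 in the knockout section. Part of each value is thus shared with all genes. Scaled to those medians, Palb2 and Rad54l turn in the wild-type section and Rad54l in the knockout section. The wild-type values of Rnf168 and Msh6 (-0.54 each), Rpa2 (-0.56) and Topbp1 (-0.60) lay close to the all-gene median there, so little of them is left after scaling. The intervals are unscaled, and the share of all genes that meets the same rule is not given. Summed mitotic markers had -0.83 and 1.53, and the villus squares of the wild-type section held 0.300% of enterocyte markers against 6.21% in the other. The part of these in the values was not tested.

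In sensing and signalling, the wild-type and knockout values were -0.94 and 1.51 for Rad50, -0.77 and 1.23 for Mdc1, -0.99 and 0.72 for Trp53bp1, -0.54 and 0.84 for Rnf168, and -0.60 and 1.65 for Topbp1. In homologous recombination they were -0.77 and 1.37 for Brca1, -0.30 and 0.90 for Palb2, -0.44 and 0.46 for Rad54l, -0.66 and 2.15 for Exo1, -0.70 and 1.44 for Rpa1, and -0.56 and 1.55 for Rpa2. Exo1, a nuclease of resection, thus has the highest value of these in the knockout section. In end joining they were -0.97 and 1.84 for Prkdc, and -0.76 and 1.31 for Xrcc6. In single-strand break and mismatch repair they were -0.88 and 1.63 for Parp1, -0.76 and 1.05 for Xrcc1, -0.76 and 1.83 for Lig1, and -0.54 and 1.47 for Msh6.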

How the results depend on the processing

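No paired analysis was possible because each genotype has 1 section and no replicate number. The median over the 30 genes between whole sections (-0.67) was -1.06 in squares at or above the median pan-epithelial share and -0.42 with wild-type squares weighted to the mitotic bins of the knockout section, where sensing and signalling (-0.62) was at -0.33. The count at least 2-fold lower (8) was 19 in pan-epithelial squares, 19 at a fold of 1.5 and 4 with the mitotic weighting. No share of all genes is given for these settings. Scaled by the median of ratios, villus squares between sections (-1.46) were at -0.96, muscle squares (0.14) turned to -0.086, crypt over villus squares were at -0.13 in the wild-type section (-0.66) and 0.86 in the knockout section (1.34), and crypt over muscle squares of the wild-type section (-0.08) turned to 0.19. With totals that leave out genes above 0.5% of counts, muscle squares between sections turned to -0.0090, crypt over villus squares of the wild-type section were at -0.33 and crypt over muscle squares there turned to 0.067. With the top 20% of squares, muscle squares between sections were at -0.012. With a side of 40, crypt over muscle squares turned to 0.023 in the wild-type section and -0.0029 in the knockout section. Apart from scaling, which shifts all genes alike, the cause was not tested. The other 65 alternative values kept their direction and lay within the interval of the main median over the genes, or within 1.5 times the main count. The mitotic weighting, the totals without abundant genes for squares and the median of ratios within a section were chosen after seeing the data. With 1 marker threshold for both sections, crypt-base squares were found only in the wild-type section (342 against 0) and villus squares only in the knockout section (356 against 0), so neither gave a value. Depth limits genes such as Atm, with 117 and 112 counts.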
